A study of Mus musculus with 7 samples.

Results

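The cytosolic ribosomal protein genes were taken by symbol from the deposited gene counts, as every row named Rpl or Rps followed by a number, with or without a closing letter or digit, together with Rplp0, Rplp1, Rplp2 and Rpsa. This gave 77 genes of 24421 symbols, 46 of the large subunit including 3 stalk genes and 31 of the small subunit. Counts came from RNA-seq of LSK cells (Lin-Sca1+Kit+) from mouse bone marrow, the gate in which stem cells and multipotent progenitors are found, sorted 8 weeks after transplantation. The Ddx41+/+ group held 4 samples, replicates 1 to 4, and the Ddx41+/- group held 3, replicates 6 to 8. Ddx41 encodes a DEAD-box RNA helicase, and the comparison asked what loss of one allele does to the transcriptome of these cells. Donor marrow of both genotypes carried Rosa-CreERT2, a Cre recombinase active in nearly all tissues once tamoxifen is given, with one floxed Ddx41 allele in the Ddx41+/- donors and wild-type alleles in the Ddx41+/+ donors. Lethally irradiated BoyJ recipients received their marrow mononuclear cells, and both groups were given 1 mg tamoxifen in 50 µl corn oil in 2 rounds of 5 days. Cells that survive from an irradiated host can remain in such marrow. Donor and recipient ages are not given in the labels. The labels do not say whether samples are single mice, so p-values measure the spread between these samples.

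Ribosomal proteins assemble with ribosomal RNA in the nucleolus into a large and a small subunit, each of which holds 1 copy of nearly every protein. Their messages belong to the 5' TOP class, which begins with a C followed by a run of pyrimidines and is translated under the control of mTOR. Hematopoietic cells are known for their sensitivity to the loss of 1 copy of a ribosomal protein gene, as in Diamond-Blackfan anemia, and free ribosomal proteins can stabilize p53.

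The start sequences of some of these genes are shown because they carry the feature by which the class is known. They came from the RefSeq promoter table on GRCm38.p6, which had 67 starts for 57 of the 77 genes. Each line holds 30 bases from 10 before the annotated start to 20 from the start onward, and capitals mark an unbroken pyrimidine run (C or T, sense strand) of at least 8 bases that holds the start base.
Rps6 (chr4:86857348-86857377, minus strand): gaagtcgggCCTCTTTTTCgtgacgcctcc
Rpl35 (chr2:39005112-39005141, minus strand): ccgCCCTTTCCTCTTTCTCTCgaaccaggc
Rpl15 (chr14:18270967-18270996, minus strand): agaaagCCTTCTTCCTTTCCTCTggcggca
Rps10 (chr17:27635225-27635254, minus strand): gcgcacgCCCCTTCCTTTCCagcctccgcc
Rpl14 (chr9:120571507-120571536, plus strand): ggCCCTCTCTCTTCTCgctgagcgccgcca
Rps24 (chr14:24490668-24490697, plus strand): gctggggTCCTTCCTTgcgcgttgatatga
Rplp2 (chr7:141447641-141447670, plus strand): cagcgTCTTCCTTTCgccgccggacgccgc
Rps27 (chr3:90213629-90213658, minus strand): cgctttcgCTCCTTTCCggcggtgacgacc
Rpl41 (chr10:128549149-128549178, minus strand): gggccggctcggaagtgacgacaccgagca
Rpl4 (chr9:64173377-64173406, plus strand): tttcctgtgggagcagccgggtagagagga
Rpl41 and Rpl4 are shown as genes with no such run at the annotated start. Of the 67 starts, 17 (25.4%) had the run, against 3.86% of the 32851 starts in the table and 3.92% of those of the genes tested. Annotated starts can lie some bases away from the start used in a cell, so the absence of a run says only that the letters are not at that position. The letters CCGGAAG, the core of the site bound by ETS factors, were found on either strand of the 300-base promoter window at 25 of the 67 starts (37.3%), against 8.86% of all starts and 16.8% of those of the genes tested.

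A 75-base read can be assigned to a single ribosomal protein gene by its own letters only where they are not repeated elsewhere. The study's methods give paired reads, and a pair can be placed by its other read. Windows were counted singly, so the shares below are not shares of pairs that cannot be placed. Of the 75-base windows in the transcripts of these genes, a median of 50.3% also occurred in a transcript of another gene in the GENCODE M21 annotation of GRCm38. For 74 of the 77 genes at least 1 such copy was an annotated pseudogene. In 14 genes, part of the exonic bases lay inside another annotated gene at the same place, where windows can also count as shared. How reads with several matches were counted is not given in the sources used here, so the level of a gene with near-identical copies is uncertain.

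Most of the genes were highly expressed. Counts of 73 genes lay between 2322 and 127122 per sample, where counting error alone is between 0.281% and 2.08%. Their levels per kb of transcript, in CPM (counts scaled to library size), ran from 92.5 to 2844 with a median of 1083 CPM per kb. Rplp1, an acidic protein of the stalk that recruits elongation factors, had the highest level at 2844 CPM per kb, and Rps24 followed at 2384 CPM per kb. Per library and not per length, Rpl4, Rplp0 and Rpsa had the highest values. In the order of replicates, Rpl4 had 2988, 3279, 3238 and 3063 CPM in Ddx41+/+ and 3172, 3388 and 2866 CPM in Ddx41+/- samples. Both ends of its range came from Ddx41+/- samples, and the genotypes overlapped. Rps15a and Rps20 stood at 135.8 and 265.7 CPM per kb, with transcript models of 5130 and 3706 bases that lower a level per length.

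The other 4 genes had a mean under 1000 counts. Rpl26 (chr11:68901583-68906989), which binds RNA near the exit of the nascent peptide tunnel, was listed at 0 counts in all 7 samples and could not be tested. A count of 0 allows up to 0.0686 to 0.0931 CPM, depending on the sample and for counting error only. Rps27 had 49 to 93 counts, Rpl30 had 209 to 281 and Rpl34 had 215 to 436 counts per sample, or 5.66, 12.2 and 17.0 CPM per kb. Rpl17 came next, at 92.5 CPM per kb. In Rps27, 98.5% of windows were shared, in Rpl17 77.9%, in Rpl30 65.1%, in Rpl26 57.5% and in Rpl34 41.4%. Levels were not always low where sharing was high. Rpl5 with 92.5% and Rpl10 with 91.9% of windows shared had 629 and 1324 CPM per kb. In Rpl5, 46.6% of exonic bases lay in an overlapping gene, where windows can count as shared without a copy elsewhere. Over the 77 genes, Spearman's rho of level per kb with percent shared was -0.15, across genes that share libraries and sequence. The part of reads with several matches in these levels was not tested.

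**Figure D1:**
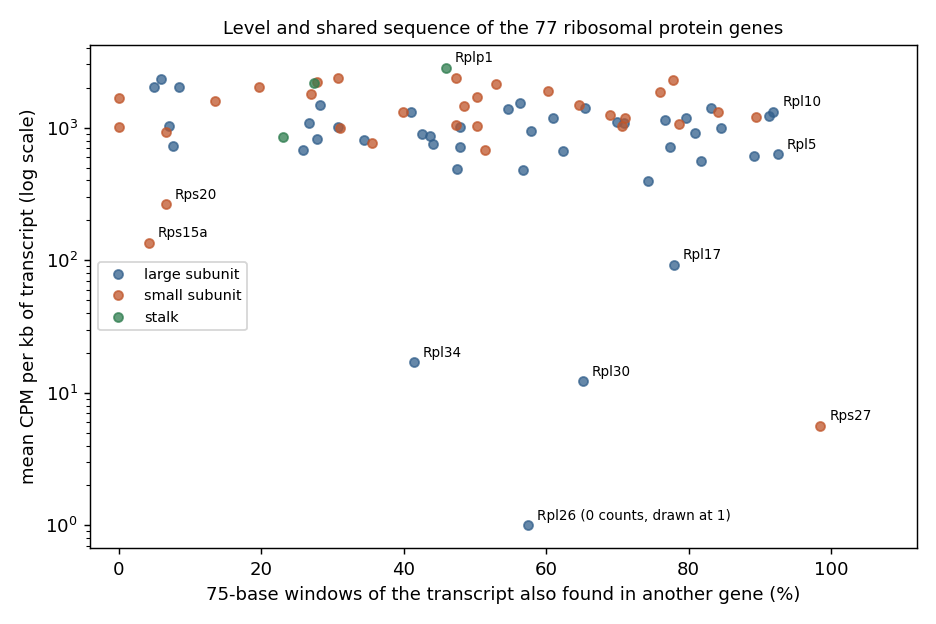
Mean CPM per kb of transcript on a log scale against the percent of 75-base transcript windows also found in another gene, 1 point per gene, coloured by subunit. Rpl26, Rps27, Rpl30 and Rpl34 lie far below the main band at 57.5%, 98.5%, 65.1% and 41.4% of windows shared, while Rpl10 and Rpl5 lie in the band at over 90% shared.

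Rps27 shows how close such copies are. Rps27 lies on chromosome 3 and its copy Rps27rt has a row of its own, and the coding sequences of both, 255 bases each in GENCODE M21, differed at 0 positions. Their first 30 coding bases, with the start codon in capitals, were the same.
Rps27: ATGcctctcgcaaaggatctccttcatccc
Rps27rt: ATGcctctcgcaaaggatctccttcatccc
The row of Rps27rt was at 0 counts in all samples. Of the 7 pseudogene rows in the counts, Rpl34-ps1 and Rplp2-ps1 were at 0 in all samples and Rpl14-ps1 had between 11554 and 14712 counts. Rpl14-ps1 differed little between genotypes (log2 fold change 0.02, edgeR adjusted p = 0.963).

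Total counts ranged from 32234499 to 43751290 per sample, and no pair of samples matched within counting error over these genes. The targeted gene Ddx41 was at 92.8 to 106.6 CPM in Ddx41+/+ and 64.4 to 69.5 CPM in Ddx41+/- samples (log2 fold change -0.54 ± 0.07 SE, edgeR adjusted p = 0.0052). All 8 markers of the LSK gate, such as Kit and Ly6a, were detected, at a summed 1584 to 1762 CPM in Ddx41+/+ and 1479 to 1625 CPM in Ddx41+/- samples. Of the 8, 7 had fitted values below 0 (median log2 fold change -0.25) and 0 passed the adjusted test. Slamf1 and Procr, markers of stem cells, were lower in every Ddx41+/- sample than in any Ddx41+/+ sample (log2 fold change -0.46 and -0.61, edgeR adjusted p = 0.355 and 0.36). Over all genes tested, 5.21% were lower without overlap. Flt3 and Cd34 had log2 fold changes of -0.34 and -0.16, and their genotypes overlapped (edgeR adjusted p = 0.355 and 0.403). The 9 mature neutrophil markers in the table summed to 694 to 1187 CPM in Ddx41+/+ and 1270.0 to 2168 CPM in Ddx41+/- samples, without overlap. The 6 megakaryocyte markers summed to 220.1 to 269 CPM and 167 to 203 CPM. B-lineage markers were highest in Ddx41+/- replicate 7, at 424 CPM, against 94.97 to 191.6 CPM in the other samples, and 346.1 CPM of the 424 came from Jchain alone. Macrophage, T and NK, late erythroid, and stroma and endothelium markers overlapped between genotypes, at summed maxima of 283.5, 284, 112.3 and 191.9 CPM, and the 4 globin rows among the 8 late erythroid markers were at 0 in all samples. Of all these markers, Mmp9 (log2 fold change 1.57, edgeR adjusted p = 0.00677) and Pf4 (-0.56, edgeR adjusted p = 0.0283) passed the test. The part of these cells in the values below was not tested, and in bulk samples fewer cells of a type and less RNA per cell cannot be told apart.

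No ribosomal protein gene passed the test between genotypes. Of 76 genes tested, 0 had an edgeR adjusted p under 0.05, in a comparison that called 0.217% of 13340 genes, and 0 of 76 is near that share. DESeq2 and limma-voom also called 0 of the 76, while calling 1.17% and 0.075% of all genes tested. With an unadjusted p under 0.05, there were 6 members (7.89%) against 10.6% of all genes, with 5 lower in Ddx41+/- against 4.93% of all genes and 1 higher against 5.7%. That count depended on single samples. It was 22 (28.9%) against 11.5% of all genes without Ddx41+/+ replicate 1, and 18 (23.7%) against 13.7% without Ddx41+/- replicate 6. It was 0 against 8.12% without Ddx41+/- replicate 8, 3 against 8.26% without Ddx41+/+ replicate 2, 2 against 9.58% without Ddx41+/+ replicate 3, and 4 against 9.67% without Ddx41+/+ replicate 4. With library totals it was 11 (14.5%) against 10.3%. The lowest adjusted p was 0.309, for Rpl41.

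The fitted differences were small, and their intervals bound them. For the 73 well-counted genes, the 95% intervals of Ddx41+/- relative to Ddx41+/+ all lay within a 1.5-fold change in either direction, and 51 lay within 1.2-fold. None lay within 1.1-fold. The median SE was 0.07 on the log2 scale. The lowest bound was 68.2% of the Ddx41+/+ level, for Rpl39, and the highest was 116.9%, for Rps24.

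**Figure D2:**
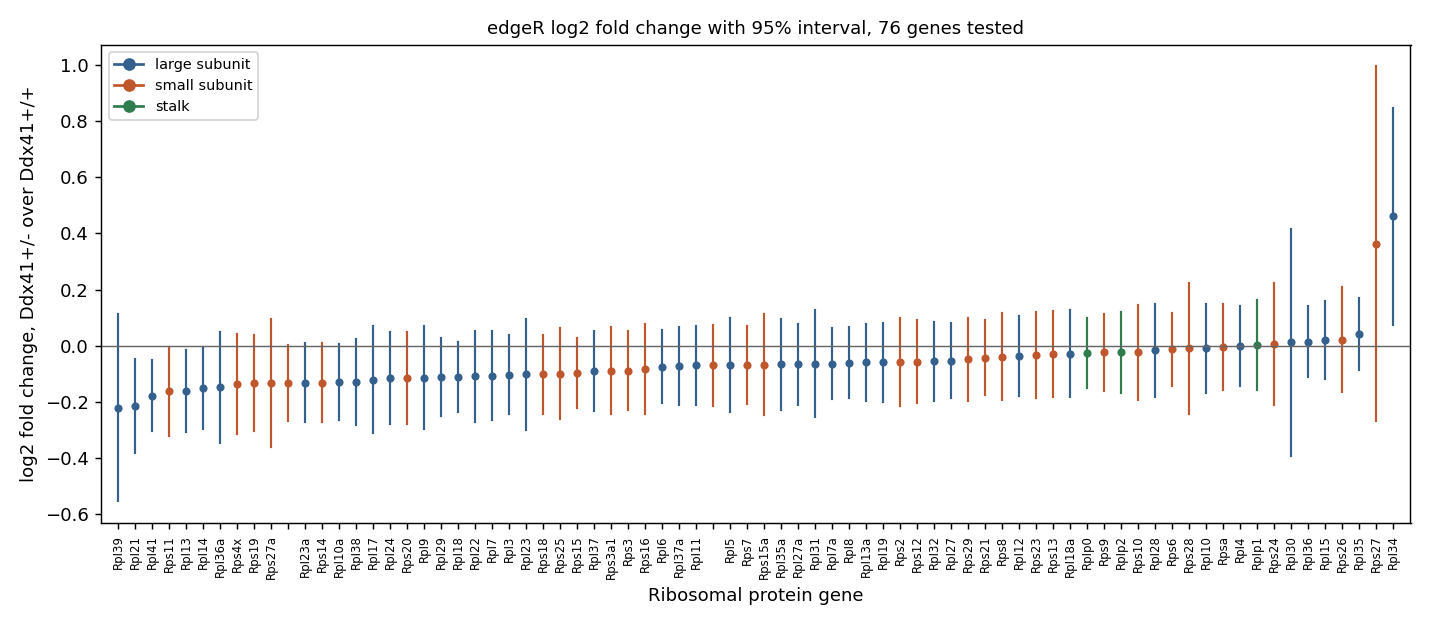
log2 fold change of Ddx41+/- over Ddx41+/+ with its 95% interval for the 76 genes tested, in order of size and coloured by subunit. Fitted values run from -0.22 to 0.46, most intervals cross 0, and the widest are those of Rps27, Rpl30 and Rpl34.

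In direction, 66 of the 76 genes (86.8%) had fitted values below 0, against 51.2% of all genes tested, and their median log2 fold change was -0.07 against -0.0048 over all genes. The quartiles were -0.11 and -0.03. Large subunit genes without the stalk had a median of -0.07 (36 of 42 below 0) and small subunit genes -0.07 (28 of 31 below 0). The stalk genes had -0.02. These genes moved together from sample to sample, so the count by sign does not rest on 76 separate observations. Without Ddx41+/- replicate 8 it fell to 51 of 76 with a median of -0.02, and without Ddx41+/+ replicate 1 it was 73 of 76 with a median of -0.11. Without both, 61 of 76 were below 0, with a median of -0.06. With a correction for transcript length, 56 of 76 were below 0 and the median was -0.05.

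The share of all counts that fell on the 77 genes was 7.06%, 7.78%, 7.77% and 7.45% in the Ddx41+/+ samples and 7.42%, 7.12% and 6.73% in the Ddx41+/- samples, in the order of replicates. Ddx41+/- replicate 8 was lowest, Ddx41+/+ replicate 1 was next, and the genotypes overlapped. The means were 7.51% ± 0.339 (SD, n = 4) and 7.09% ± 0.346 (SD, n = 3), a difference of -0.422 percentage points that is somewhat larger than the SD within either genotype. The ratio of large to small subunit counts was 1.22 to 1.26 in Ddx41+/+ and 1.24 to 1.254 in Ddx41+/- samples.

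Sample by sample, the well-counted genes shifted as a block. Relative to the Ddx41+/+ mean, their median log2 CPM was -0.12, 0.06, 0.08 and -0.02 in the Ddx41+/+ samples, and -0.0004, -0.05 and -0.18 in the Ddx41+/- samples. The SD of these medians was 0.09 within each genotype. In Ddx41+/- replicate 8 all 73 genes were below the Ddx41+/+ mean, and 50 of them had their lowest value there. In Ddx41+/+ replicate 1 it was 72 of 73, and 10 genes were lowest in that sample. Ddx41+/+ replicate 3 held the highest value for 40 genes.

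**Figure D3:**
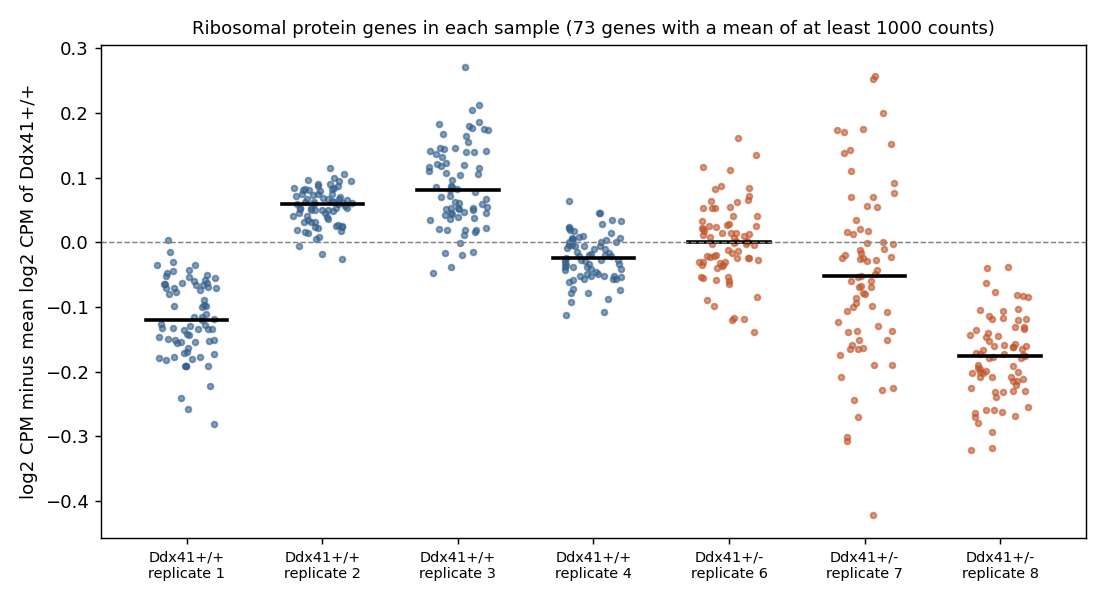
log2 CPM minus the mean log2 CPM of Ddx41+/+ in each sample, 1 point per gene for the 73 genes with a mean of at least 1000 counts, with the sample median as a bar. The block of points sits low in Ddx41+/- replicate 8 (median -0.18) and Ddx41+/+ replicate 1 (-0.12), high in Ddx41+/+ replicate 3 (0.08), and is widest in Ddx41+/- replicate 7.

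Other sample values ran beside this shift. The row Rn45s, named for the ribosomal RNA precursor, held 1.52%, 1.67%, 2.92% and 0.876% of counts in the Ddx41+/+ samples and 2.05%, 2.58% and 0.623% in the Ddx41+/- samples. The study's methods give polyA selection, and precursor and mature ribosomal RNA were not told apart, so this row does not measure the precursor level. Like the summed CPM of the ribosomal protein genes, the Rn45s share was highest in Ddx41+/+ replicate 3 and lowest in Ddx41+/- replicate 8. As a share of counts, the ribosomal protein genes were highest in Ddx41+/+ replicate 2, at 7.78% against 7.77% in replicate 3. Ddx41+/+ replicate 4 was next to lowest in Rn45s but near the Ddx41+/+ mean in ribosomal protein genes. The nuclear genes of oxidative phosphorylation, another set of short and highly expressed genes, summed to 10440, 11280, 11820 and 11100 CPM in Ddx41+/+ and 11460, 10570 and 10440 CPM in Ddx41+/- samples. On this scale their lowest values fell on Ddx41+/+ replicate 1 and Ddx41+/- replicate 8 as well, and their highest on Ddx41+/+ replicate 3. As a share of counts the lowest was Ddx41+/- replicate 7, at 1.04%, with Ddx41+/- replicate 8 and Ddx41+/+ replicate 1 both at 1.06%. Within a sample, genes of high and low GC content shifted unequally. For this, log2 CPM was centred on each gene's mean over all 7 samples and on the sample's median, so the samples' values depend on one another. Spearman's rho of these values with transcript GC over the 73 genes was 0.52, -0.34, -0.60 and 0.51 in the Ddx41+/+ samples, and 0.14, -0.11 and 0.13 in the Ddx41+/- samples. The part of GC content, length or RNA quality in the shifts was not tested.

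Ddx41+/- replicate 7 differed in another way, in the genes relative to one another. After the shift of each sample was taken out, the SD across the 73 genes was 0.12 on the log2 scale in this sample and 0.04 to 0.08 in the other 6, against a median counting error of at most 0.0082 in any sample. Rps28 and Rps26, both at the mRNA exit side of the small subunit, stood 0.28 and 0.27 above the block, and Rps24, Rpl28 and Rpsa 0.22, 0.20 and 0.20 above it. Rpl39, a small protein lining the exit tunnel, stood -0.31 from it. Rps27a, made as a fusion with ubiquitin, stood at -0.23, Rps19 at -0.22, and Rpl13 and Rps10 at -0.18. Both subunits were among the high and the low genes, and the medians of the large and small subunit were 0.01 and -0.01. The signed values had a Spearman's rho of 0.10 with percent of windows shared over the 73 genes. The size of the deviations was not compared with shared sequence.

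**Figure D4:**
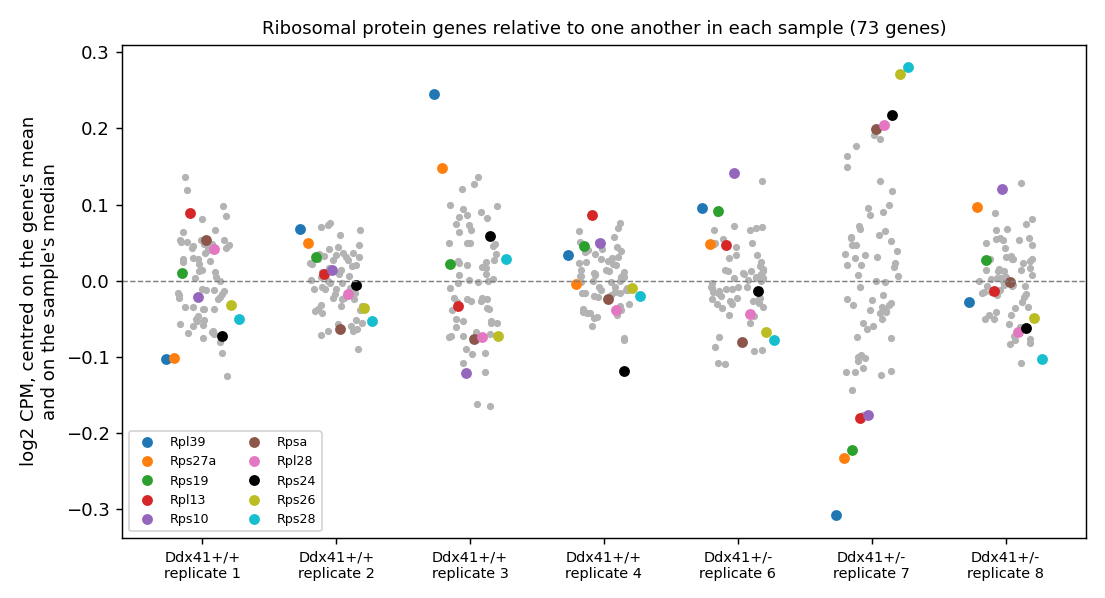
log2 CPM of the 73 genes centred on each gene's mean and on each sample's median, with the 5 highest and 5 lowest genes of Ddx41+/- replicate 7 in colour. In that sample, by which they were picked, the coloured genes reach from -0.31 for Rpl39 to 0.28 for Rps28. In Ddx41+/- replicates 6 and 8 the same genes lie between -0.10 and 0.14. In the Ddx41+/+ samples they lie between -0.12 for Rps10 and 0.25 for Rpl39, both in replicate 3.

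Among the genes with the lowest p, Rpl41 came first. Rpl41 encodes a very short, basic peptide that bridges the subunits. It had 806, 855, 867 and 839.6 CPM in Ddx41+/+ and 775, 766 and 693 CPM in Ddx41+/- samples. All 3 Ddx41+/- values were below all 4 Ddx41+/+ values, and of the genes tested here Rpl41 was the only one without overlap, in a comparison where 5.21% of all genes were lower without overlap. No member was higher without overlap, against 4.85% of all genes. The Rpl41 means were 842 ± 26.5 (SD, n = 4) and 744.5 ± 44.8 CPM (SD, n = 3), with a log2 fold change of -0.18 ± 0.06 SE (edgeR adjusted p = 0.309). Without single samples its fitted value remained below 0, and it was not called in any alternative.

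Rpl21, a large subunit protein, had 416, 489, 524 and 449.5 CPM in Ddx41+/+ and 439.6, 399.8 and 374 CPM in Ddx41+/- samples. Ddx41+/- replicate 6 stood above Ddx41+/+ replicate 1, so the genotypes overlapped, and the log2 fold change was -0.21 ± 0.08 SE (edgeR adjusted p = 0.336). Rpl13 had 929.9, 991, 983 and 989 CPM in Ddx41+/+ and 979, 806.5 and 829 CPM in Ddx41+/- samples. Ddx41+/- replicate 6 lay inside the Ddx41+/+ range and the other two below it, for a log2 fold change of -0.16 ± 0.07 SE (edgeR adjusted p = 0.419). Rpl14 had 861 to 1011 CPM in Ddx41+/+ samples and 803 to 925 CPM in Ddx41+/- samples, with a log2 fold change of -0.15 ± 0.07 SE (edgeR adjusted p = 0.454).

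On the other side, Rpl34 had 5.61, 6.91, 6.79 and 8.76 CPM in Ddx41+/+ and 7.95, 11.2 and 9.83 CPM in Ddx41+/- samples. Ddx41+/- replicate 6 lay inside the Ddx41+/+ range, and the log2 fold change was 0.46 ± 0.18 SE (edgeR adjusted p = 0.377). Rps27 had 1.64, 1.66, 1.55 and 2.10 CPM in Ddx41+/+ and 2.18, 2.43 and 2.10 CPM in Ddx41+/- samples, with a log2 fold change of 0.36 ± 0.30 SE (edgeR adjusted p = 0.713). Both are rows with few counts and copies elsewhere, and their values are uncertain for that reason. Rpl35 and Rpl15 had log2 fold changes of 0.04 ± 0.06 and 0.02 ± 0.07 SE, and their genotypes overlapped.

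Several members are known as genes whose loss of 1 copy causes Diamond-Blackfan anemia in people. The most often affected, Rps19, had 964, 1101, 1119 and 1053 CPM in Ddx41+/+ and 1106, 858 and 934 CPM in Ddx41+/- samples. Ddx41+/- replicate 6 was among the highest and replicates 7 and 8 were the lowest, and the log2 fold change was -0.13 ± 0.08 SE (edgeR adjusted p = 0.589). Rps24 had 1104, 1302, 1392 and 1140.0 CPM in Ddx41+/+ and 1247, 1412 and 1064 CPM in Ddx41+/- samples, so that both the highest and the lowest value were Ddx41+/- samples. Rps26 was at 624 to 701 CPM in Ddx41+/+ samples and at 660.2, 805 and 590.2 CPM in Ddx41+/- samples, again with replicate 7 highest and replicate 8 lowest. The fitted values of Rps24 and Rps26 were 0.01 ± 0.10 and 0.02 ± 0.09 SE.

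Of the others in this group, Rps10 had 562.1 to 649 CPM in Ddx41+/+ samples and 528 to 683 CPM in Ddx41+/- samples. Rps7 had a log2 fold change of -0.07 ± 0.07 SE and Rpl35a of -0.07 ± 0.08 SE (edgeR adjusted p = 0.764 and 0.813). Rpl26 belongs here as well and had no counts. Rps14, the gene tied to the anemia of the 5q- form of myelodysplastic syndrome, had 1062, 1187, 1134 and 1039 CPM in Ddx41+/+ and 1088, 994 and 947 CPM in Ddx41+/- samples. Replicates 7 and 8 lay below the Ddx41+/+ range and replicate 6 within it, with a log2 fold change of -0.13 ± 0.07 SE (edgeR adjusted p = 0.514).

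Rpl5 and Rpl11 form a complex with 5S RNA that binds Mdm2, the ligase that degrades p53, and Rpl23 binds it too. Rpl5 had 1154, 1356, 1487 and 1257 CPM in Ddx41+/+ and 1289, 1307 and 1158 CPM in Ddx41+/- samples. Rpl11 had 925, 1034, 1087 and 999.4 CPM and 1014, 980.1 and 896 CPM. For both genes Ddx41+/- replicate 8 was near or below the bottom of the Ddx41+/+ range, and for both the log2 fold change was -0.07, with SE of 0.08 and 0.07 (edgeR adjusted p = 0.808 and 0.766). Rpl23 stood at -0.10 ± 0.09 SE. Of the 16 genes of the p53 axis, 0 passed the test, 11 had fitted values above 0 and 5 below, and the list summed to 787 to 831 CPM in Ddx41+/+ and 789.6 to 838 CPM in Ddx41+/- samples.

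Rpl10 and Rpl22 are large subunit genes found mutated or deleted in T-cell leukemia, and Rpl10 is also a late-joining protein needed for the subunit to become active. Rpl10 had 932 to 1166 CPM in Ddx41+/+ samples and 974 to 1120.0 CPM in Ddx41+/- samples, wholly within the Ddx41+/+ range. Rpl22 ran from 449.9 to 565 CPM and from 443 to 500.5 CPM, with a log2 fold change of -0.11 ± 0.08 SE (edgeR adjusted p = 0.657). Rpl22l1, its paralog, had a log2 fold change of -0.09 ± 0.10 SE (edgeR adjusted p = 0.819). Rpsa, a small subunit protein also known as a laminin receptor, had 2296, 2384, 2414 and 2318 CPM in Ddx41+/+ and 2266, 2656 and 2115 CPM in Ddx41+/- samples. Its Ddx41+/- values enclosed the Ddx41+/+ range.

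The stalk genes and Rps6, the substrate of S6 kinase, were among the members with the smallest fitted changes. Rplp0 had 2862, 3002, 2975 and 2973 CPM in Ddx41+/+ and 3089, 2814 and 2799 CPM in Ddx41+/- samples, a coefficient of variation of 3.68% over the 7 samples against a median of 7.54% over the 76 genes tested. Its interval placed Ddx41+/- at 90.04% to 107.2% of Ddx41+/+. Rps6 had a coefficient of variation of 4.71%, with an interval of 90.5% to 108.6%. Rplp1 and Rplp2 had intervals of 89.6% to 111.9% and 89.0% to 108.8%. The largest coefficients of variation were those of Rpl34 at 23.7%, Rps27 at 17.2% and Rpl39 at 16.8%. Rpl39 is well counted, and had 384, 487, 563 and 450.0 CPM in Ddx41+/+ and 478, 348 and 387 CPM in Ddx41+/- samples, with a log2 fold change of -0.22 ± 0.14 SE (edgeR adjusted p = 0.651).

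**Figure D5:**
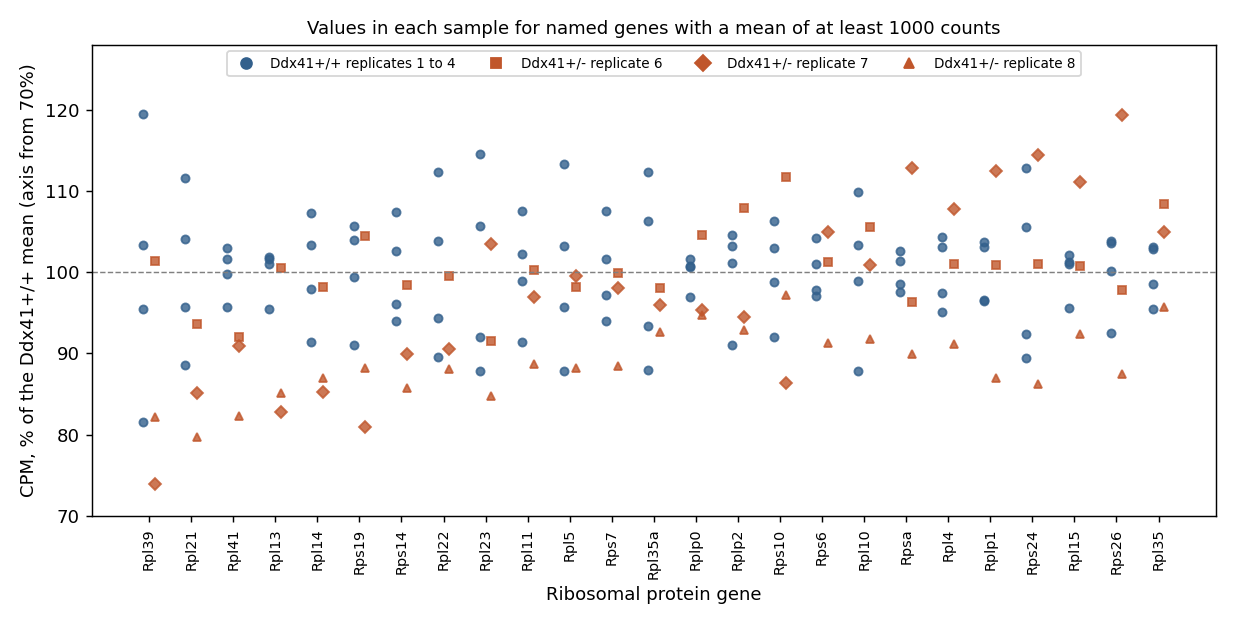
CPM in each sample as a percent of the gene's Ddx41+/+ mean, for named genes with a mean of at least 1000 counts, in order of fitted change, on an axis that starts at 70%. Ddx41+/- values lie wholly below the Ddx41+/+ values in Rpl41 alone. Replicate 7 (diamonds) changes from among the lowest at the left to among the highest at the right, in an order that its own values helped to set.

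Groups within the family that were not used to choose it were compared as descriptions. Ddx41 has been linked to the processing of small nucleolar RNAs, which lie in introns of many of these genes. In the annotation, 30 of the 77 genes held 58 such RNA genes. Of these 30 host genes, 28 had fitted values below 0 and their median log2 fold change was -0.07, and of the 46 other genes tested it was 38, with a median of -0.07. The 17 genes with a pyrimidine run at a start had a median of -0.02 (12 below 0), and the other genes with a RefSeq start had -0.07 (37 of 39 tested below 0). The 5 genes above 0 among those with a run included Rps27 and Rpl34, rows with few counts and uncertain values. Genes with and without CCGGAAG had medians of -0.06 and -0.07. The 4 X-linked genes, Rpl39, Rpl10, Rps4x and Rpl36a, all had fitted values below 0, against 86.8% of all members tested. Their median was -0.14, from -0.22 for Rpl39 to -0.0082 for Rpl10, and 0 of them had an unadjusted edgeR p under 0.05.

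Paralogs and fusion genes supply or replace subunits, and are not part of the 77. Of 12, 10 were tested and 0 passed. Fau, which encodes the small subunit protein of the Rps30 family fused to a ubiquitin-like protein, had 630.5, 669.8, 645 and 652 CPM in Ddx41+/+ and 629, 574 and 574 CPM in Ddx41+/- samples. All Ddx41+/- values were below the Ddx41+/+ values, by a narrow margin of 629 against 630.5 CPM. The log2 fold change was -0.13 ± 0.06 SE (edgeR adjusted p = 0.426). Of all genes tested, 5.21% were lower in Ddx41+/- without overlap, which also applies to Rpl3l below. The row of Rack1, under its older symbol Gnb2l1, a scaffold on the small subunit, had -0.11 ± 0.06 SE (edgeR adjusted p = 0.566). Rpl3l, known from muscle, was at 0.414 to 0.798 CPM in Ddx41+/+ and 0.0902 to 0.305 CPM in Ddx41+/- samples, a low level without overlap (edgeR adjusted p = 0.412). Rpl7l1, Rps27l, Rps4l, Rpl39l and Rpl36al had log2 fold changes of -0.02, -0.07, -0.12, -0.21 and 0.11, with adjusted p from 0.661 to 0.962, and Rpl10l was at 0 in all samples.

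Genes of related function were described by list. A list of 24 genes with 5' TOP messages held translation factors, but also genes such as Vim, Npm1 and the Rack1 row Gnb2l1. Of the 24, 12 had fitted values above 0 and 12 below. Of 22 regulators of such messages, including Larp1 and mTOR pathway genes, it was 12 above and 10 below. Of 19 chaperones and importers of ribosomal proteins it was 11 above and 8 below. Nap1l1, Naca and Btf3 were both in this list and among the genes with 5' TOP messages. No gene of these lists passed the test. Of the 75 oxidative phosphorylation genes tested, 50 had fitted values below 0, with a median of -0.03, and 0 passed.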

How the data were processed

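RNA-seq was performed on sorted LSK cells, and the authors deposited whole-number counts for each gene symbol without normalization. Submitters' processing notes name FastQC 0.11.7, HISAT2 2.0.5 and featureCounts 1.5.2 with build mm10. The labels give a stranded library kit and the study's methods another kit. The settings for strand and for reads with several matches are not given in the sources used here. The deposited counts are named as having had Ddx41+/- library 5 taken out, and it was not analysed here. Groups are the genotypes of the labels.

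Genotypes were compared in edgeR 4.0.16 (R 4.3.3) by its quasi-likelihood test, with TMM scaling, filterByExpr and a robust fit, with Benjamini-Hochberg adjustment over 13340 genes and a threshold of 0.05. SE was the size of the log2 fold change divided by the root of F. CPM used TMM-scaled library sizes. The fit was tested on simulated data. Alternatives were DESeq2 1.42.0, voom of limma 3.58.1, other scalings and filters, a transcript length correction and each sample left out.

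All 77 symbols matched GENCODE M21. For levels per kb the shortest well-supported coding transcript was used. The genes, and the gene and marker lists, were chosen with earlier results of these data known. Named were genes with an adjusted p under 0.05, the 4 higher and 4 lower with the smallest p, 15 disease or p53-related genes, the stalk genes and Rps6, the 3 highest and 3 lowest in CPM, and the 3 with the largest coefficient of variation. Rps28, Rps27a, Rpl28, Rps4x, Rpl36a, Rpl17, Rps15a and Rps20 were named after their values were seen. Single values of some genes are not reported here.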

Additional observations from a re-analysis of the deposited data

Results flagged for a closer look

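Rpl13 was the 1 value of 33 checked in which a Ddx41+/+ sample stood apart from the other samples of its group. Its CPM were 991, 983 and 989 in Ddx41+/+ replicates 2 to 4 and 929.9 in replicate 1, so that the gap of replicate 1 to the nearest sample was 0.874 of the range. Chance flags about 1 group in 20, or 1.65 of 33. Without replicate 1 the log2 fold change of Rpl13 was -0.18 (edgeR adjusted p = 0.348), against -0.16 with it. The 3 Ddx41+/- samples are too few for this check.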

How the results depend on the processing

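No paired analysis was possible because no replicate number occurs in both genotypes. Under all 17 alternative fits, 0 ribosomal protein genes were called. At an unadjusted p under 0.05 there were 6 of them as reported and 0 to 22 under the alternatives, with 22 without Ddx41+/+ replicate 1, 18 without Ddx41+/- replicate 6 and 0 without Ddx41+/- replicate 8. Their median log2 fold change kept its sign, from -0.11 to -0.02 with single samples left out, and the difference in their share of counts ran from -0.587 to -0.241 percentage points. A share without mitochondrial genes could not be computed, since the counts have 0 such rows. Over all genes, 29 calls became 156 with DESeq2, 10 with limma-voom, 15 with library totals, 91 with no filter, 14 with a non-robust fit, 55 with the transcript length correction, 74 at an adjusted p under 0.1, 1418 at an unadjusted p under 0.05, 8 without Ddx41+/+ replicate 1 and Ddx41+/- replicate 8 together (chosen after seeing the data), and 7 to 41 with single samples left out. The cause was not tested.

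Of 493 refitted values of 29 named genes, 50 in 12 genes changed sign, and 0 of 493 were called (lowest adjusted p 0.114). All 12 had fitted values near 0. With the length correction, log2 fold changes became 0.0265 for Rpl10, 0.0203 for Rplp0, 0.0197 for Rplp2, 0.0167 for Rps10, 0.0243 for Rps6 and 0.0389 for Rpsa. With library totals they became -0.0023 for Rpl30, -0.0154 for Rpl4, -0.0151 for Rplp1 and -0.0076 for Rps24. Rpl4 became -0.0003 with scaling factors set without ribosomal protein genes, -0.0029 with limma-voom, -0.0002 with no filter and -0.0072 with upper-quartile scaling, and Rplp1 became -0.0070 with limma-voom and -0.0050 with upper-quartile scaling. Without Ddx41+/+ replicate 1 and Ddx41+/- replicate 8 together, Rps6 became 0.0287 and Rpsa 0.0529. With single samples left out, values ran from -0.0656 to 0.0459 for Rpl10, -0.051 to 0.0829 for Rpl15, -0.13 to 0.13 for Rpl30, -0.0583 to 0.0619 for Rpl4, -0.0901 to 0.0933 for Rplp1, -0.0948 to 0.0161 for Rplp2, -0.12 to 0.062 for Rps10, -0.10 to 0.11 for Rps24, -0.11 to 0.12 for Rps26, -0.0562 to 0.0428 for Rps6 and -0.10 to 0.0645 for Rpsa.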
